A study of Mus musculus with 20 samples.

Results

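The NRF2 antioxidant response genes described here are 10 genes, Nfe2l2, Keap1, Gclc, Gclm, Txnrd1, Srxn1, Nqo1, Hmox1, Gsta4 and Cat, picked by name because quercetin is a reported activator of this response. All 10 had a row among the 22660 rows of the count table, and all 10 passed the filter on low counts in every comparison. RNA was sequenced from the plantaris muscle of 20 old male C57BL/6 J mice, aged 2 years per the labels, in 4 groups of 5 different animals. The design asks what a senolytic treatment, meant to clear senescent cells, does to muscle RNA at rest and under mechanical overload (MOV), in which parts of the synergist muscles are removed so that the plantaris carries more load. Sham surgery opened the skin and left those muscles in place.

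The vehicle sham and vehicle MOV groups received the carrier by gavage, and the D + Q sham and D + Q MOV groups received dasatinib at 5 mg/kg with quercetin at 50 mg/kg. Gavage was on days 7 and 10, and muscle was taken on day 14 after surgery. For the sham mice the series' design text puts the second gavage on day 14. The treatment protocol of the samples gives days 7 and 10, as does the paper for sham and MOV mice. By the series' records the interval between the last dose and collection is therefore uncertain in those groups. Dasatinib and quercetin were given together, so their effects cannot be told apart.

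NRF2, the protein of Nfe2l2, is a transcription factor that is held at a low level in resting cells because KEAP1 hands it to a CUL3 ubiquitin ligase for destruction. Electrophiles and oxidants modify KEAP1, NRF2 then builds up, binds antioxidant response elements with small MAF proteins and turns on genes for glutathione and thioredoxin metabolism, quinone reduction, heme breakdown and NADPH supply. Because this control acts on the protein, the mRNA levels of Nfe2l2 and Keap1 do not measure NRF2 activity.

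Total counts per mouse lay between 17887532 and 26234518. Levels are given as CPM, counts divided by library size on a common scale, after TMM scaling, which sets libraries to a common level under the assumption that most genes do not change. The choice bears on every MOV comparison. With scaling by total counts alone, the median log2 fold change of all genes between MOV and sham went from -0.02 to 0.36 in vehicle mice and from 0.02 to 0.39 in D + Q mice. The share of called genes that were higher in MOV went from 50.8% to 84.1% and from 52.6% to 83.5%. Changes with MOV are therefore given relative to the typical gene, and a direction that turns under the other scaling is named where it is given.

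Of the MOV libraries, vehicle MOV mouse 2 stood nearest to sham. On an axis from the mean of the sham mice of the same treatment at 0 to the mean of the other MOV mice of that treatment at 1, it lay at 0.771, and the other 9 MOV mice lay between 0.887 and 1.17. Its summed macrophage markers, 286 CPM, were the lowest of the MOV mice, and its erythroid markers, 1028 CPM, were the highest of all 20. Some results are also given without this mouse, and each such value is named. The share of counts on Rn18s, a ribosomal RNA gene, was 1.01 to 1.69% in the 5 D + Q MOV mice, above the 0.697 to 0.959% of the vehicle MOV mice and the 0.549 to 0.762% of the D + Q sham mice, so it differs between the groups of both comparisons that use the D + Q MOV mice, and its part in the members' values was not tested.

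Short promoter sequences are shown because the members share a regulator known to bind antioxidant response elements. The 1000 bases before the start of each gene's canonical transcript (GENCODE, GRCm39) were searched on both strands for the element's core in the spellings TGACNNNGC and TGAGNNNGC, the second added after the first had been searched, and both after the values were seen. Of 21770 promoters of protein-coding genes, 28.2% held the first spelling, 39.6% the second and 56.2% at least 1 of them, against 7 of the 10 members. The core is in capitals, read 5′ to 3′ on the strand named, and the distance is that of the core's near end from the transcript start.
Nfe2l2, chr2:75535229-75535257, minus strand, 254 bases before the start: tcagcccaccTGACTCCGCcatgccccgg
Gclm, chr3:122039062-122039090, minus strand, 46 bases before the start: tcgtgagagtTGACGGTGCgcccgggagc
Txnrd1, chr10:82694938-82694966, minus strand, 57 bases before the start: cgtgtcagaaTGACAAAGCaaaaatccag
Srxn1, chr2:151947389-151947417, plus strand, 37 bases before the start: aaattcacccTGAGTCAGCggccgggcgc
Nqo1, chr8:108130255-108130283, minus strand, 331 bases before the start: agagtcacagTGAGTCGGCaaaatttgag
Hmox1, chr8:75820171-75820199, minus strand, 52 bases before the start: gccgcccagcTGAGCCGGCgttctcgctg
Gsta4, chr9:78099133-78099161, plus strand, 78 bases before the start: tactcagtaaTGAGTCAGCgaaaactttt
Srxn1 held 3 matches in all and Txnrd1 held 2, of which the nearest to the start is printed. Keap1, Gclc and Cat held neither spelling in this window. A match describes letters in the genome, and binding was not measured.

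Compared per kilobase of the canonical transcript, the members differed widely in vehicle sham muscle. Cat was the most abundant at 36.5 ± 1.92 CPM per kilobase (SD, n = 5), before Txnrd1 at 31.2 ± 1.60 and Keap1 at 27.1 ± 2.18. A lower tier held Nfe2l2 at 9.83 ± 0.559, Nqo1 at 8.28 ± 1.33 and Gsta4 at 6.86 ± 1.25 CPM per kilobase. Gclc at 4.88 ± 0.618, Srxn1 at 4.71 ± 0.519, Hmox1 at 3.36 ± 0.648 and Gclm at 2.65 ± 0.196 CPM per kilobase were the lowest. Neighbours in this order whose 5 mice did not overlap were Cat and Txnrd1, Keap1 and Nfe2l2, Gsta4 and Gclc, and Srxn1 and Hmox1, and the other neighbours overlapped. In D + Q MOV mice Hmox1 stood at 8.76 ± 1.05 CPM per kilobase, above Nqo1 at 4.31 ± 0.576. In vehicle MOV mice the means were in the same order, 7.40 ± 2.82 and 3.865 ± 0.616, and the mice overlapped.

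**Figure D1:**
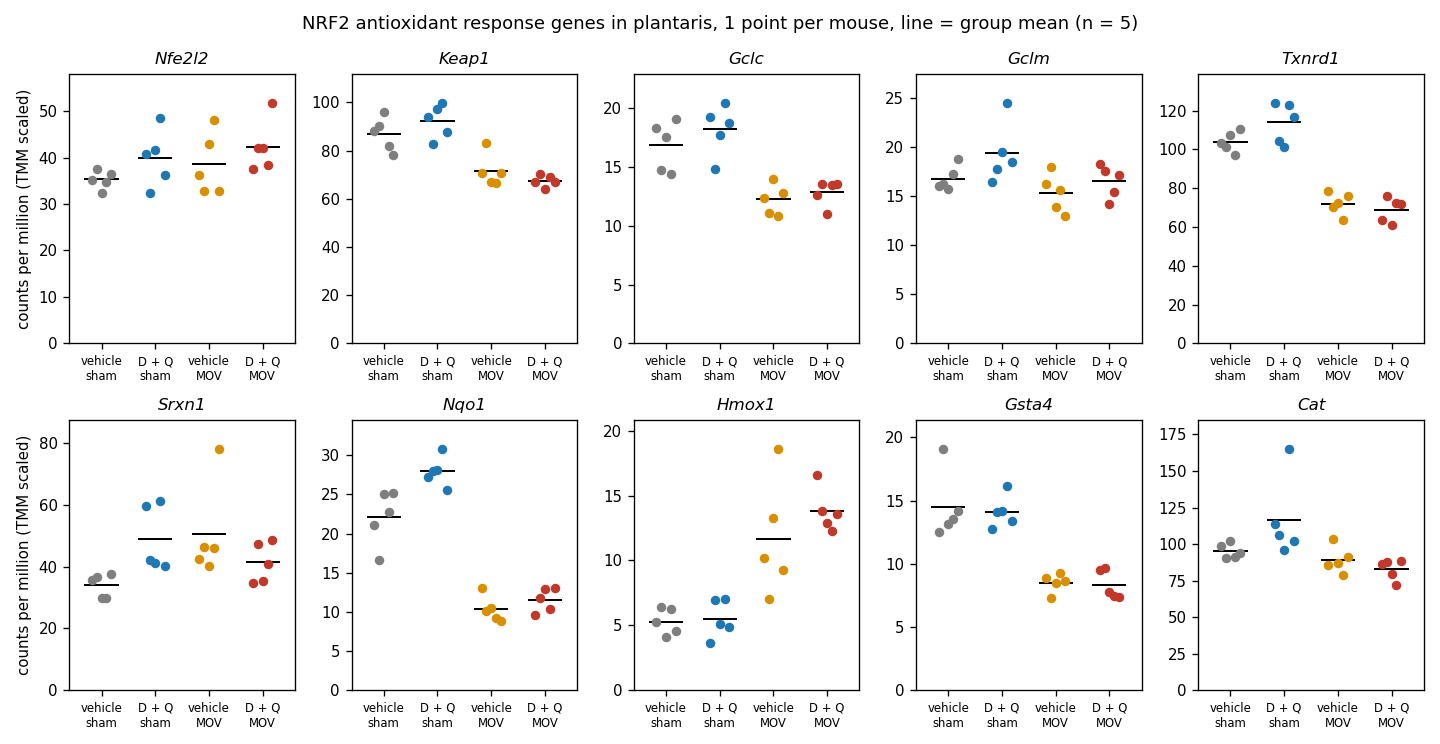
Level of each member in CPM (TMM scaled) in every mouse of the 4 groups, with a line at the group mean (n = 5). Nqo1, Gsta4 and Txnrd1 sit lower and Hmox1 sits higher in every MOV mouse than in every sham mouse; total-count scaling turns the direction for Keap1 and Cat in vehicle mice, Srxn1 in D + Q mice and Gclm in both.

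D + Q against vehicle in MOV muscle asks whether the treatment moved these genes in overloaded muscle 4 days after the last dose of the stated protocol. It moved none of them past the threshold. Hmox1, the enzyme that opens heme to biliverdin, iron and carbon monoxide, had the highest log2 fold change, 0.24 (SE 0.21), and Srxn1, which repairs over-oxidised peroxiredoxins, had the lowest, -0.30 (SE 0.18). The members split 5 positive to 5 negative around a median of 0.01, where all genes had 0.00. Of the marker lists, 9 of 10 macrophage (median 0.24) and 6 of 6 fibroblast markers (0.39) were positive. Negative were 5 of 5 erythroid (-0.24), 5 of 5 slow fibre (-0.09) and 2 of 3 neutrophil markers (-1.03). The erythroid direction rested on vehicle MOV mouse 2, at a sum of 1028 CPM. The other vehicle MOV mice summed to 208 to 393 CPM and the D + Q MOV mice to 290 to 432 CPM. None of these markers was called, and their part was not tested.

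Srxn1 stood at 42.4, 46.4, 40.3, 46.1 and 78.0 CPM in the 5 vehicle MOV mice and at 34.8, 47.4, 35.3, 40.8 and 48.6 CPM in the 5 D + Q MOV mice. Mouse 5 of the vehicle group was far above all others, and the remaining values overlapped. Without that mouse the log2 fold change of Srxn1 was -0.08. Hmox1 measured 10.2, 7.06, 13.2, 18.6 and 9.29 CPM with vehicle and 16.5, 13.8, 12.9, 12.2 and 13.6 CPM with D + Q. The vehicle mice spanned the whole range of the D + Q mice, and their SD was 4.44 CPM against 1.65. The Hmox1 log2 fold change was 0.10 without vehicle MOV mouse 2 and 0.46 without vehicle MOV mouse 4.

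By edgeR's quasi-likelihood test with Benjamini-Hochberg adjustment over all genes, 0 of 10 members were called, beside 0% of the 15238 genes tested. At an unadjusted p under 0.05 there were 0 members and 1340 genes, and 2634 genes without vehicle MOV mouse 4. DESeq2 called 0 members and 13 genes. The paper, which used DESeq2 at the same threshold, reports far more differentially expressed genes for D + Q against vehicle in MOV. The reason for this difference was not tested. No member's groups were apart, where 1.5% of all genes had groups that did not overlap. The 95% intervals show which sizes the data allow: the widest ran from -0.22 to 0.69 for Hmox1 and from -0.70 to 0.10 for Srxn1, and the narrowest from -0.25 to 0.06 for Keap1. Adjusted p-values of the members ranged from 0.642 to 0.934 (edgeR).

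In sham muscle, D + Q against vehicle asks the same without overload. Srxn1 and Nqo1, the enzyme that reduces quinones with NAD(P)H and a common readout of NRF2, were higher in all 5 D + Q mice than in all 5 vehicle mice, and neither passed the threshold after adjustment. Of the 10 members 9 had a positive log2 fold change, with a median of 0.14 against 0.00 for all genes. With 1 mouse left out, the positive members numbered from 8, with Hmox1 turned to the negative side in 4 of 10 cases, to 10, without vehicle sham mouse 2, and the median was 0.09 without D + Q sham mouse 4. The exception was Gsta4, a glutathione transferase for lipid aldehydes such as hydroxynonenal, at -0.05 (SE 0.11). Of the marker lists, 6 of 6 fibroblast (median 0.47), 4 of 4 satellite cell (0.39) and 2 of 2 neutrophil markers (0.70) were positive. So were 5 of 6 endothelial (0.17) and 8 of 10 macrophage markers (0.17). Among neutrophil sums, D + Q sham mouse 4 stood apart at 4.08 CPM. The other D + Q sham mice, at 0.713 to 1.58 CPM, lay within the 0.414 to 2.24 CPM of the vehicle mice. Negative were 5 of 5 erythroid (-0.50) and 5 of 5 slow fibre markers (-1.34), the latter resting on vehicle sham mouse 3, whose sum was 663 CPM against 146 to 230 CPM in the other 4 and 132 to 249 CPM with D + Q. None of these was called, and their part in the members' values was not tested.

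Nqo1 measured 21.0, 16.6, 25.1, 22.8 and 25.1 CPM in vehicle sham mice and 27.3, 28.0, 28.1, 30.8 and 25.6 CPM in D + Q sham mice. The groups touch but do not overlap, with D + Q mouse 5 just above the highest vehicle mice. Its log2 fold change was 0.33 (SE 0.10, adjusted p = 0.224, edgeR). Srxn1 measured 35.6, 36.7, 29.99, 29.8 and 37.5 CPM with vehicle and 59.7, 42.0, 41.1, 61.4 and 40.1 CPM with D + Q. Mice 1 and 4 of the D + Q group stood well above the other 3, which lay just above the vehicle mice. The log2 fold change of Srxn1 was 0.52 (SE 0.14, adjusted p = 0.241, edgeR). DESeq2 called it at an adjusted p of 0.0156, and the other alternatives that kept all mice left it uncalled in edgeR.

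Cat, which turns hydrogen peroxide into water and oxygen, measured 98.8, 90.6, 102.3, 91.5 and 93.9 CPM with vehicle and 114, 106, 96.1, 165 and 102 CPM with D + Q. Mouse 4 of the D + Q sham group was far above every other mouse, and the groups overlapped. The log2 fold change of Cat was 0.28 (SE 0.13) with this mouse and 0.12 without it. Gclm, the modifier subunit of glutamate-cysteine ligase, the rate-limiting enzyme of glutathione synthesis, was also highest in that mouse at 24.6 CPM. Its log2 fold change was 0.20 (SE 0.10) with the mouse and 0.10 without. Nfe2l2 had 0.16 (SE 0.09), and 0.09 without the same mouse, and Txnrd1, the cytosolic thioredoxin reductase, had 0.12 (SE 0.07).

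In this comparison 0 of 10 members were called by edgeR, beside 0.215% of the 13926 genes tested, and 2 members, Srxn1 and Nqo1, were at an unadjusted p under 0.05, as were 1420 genes. DESeq2 called 1 member and 123 genes. Groups that did not overlap were found for 2 of 10 members and for 2.12% of all genes. The count of 30 genes called in all rested on single mice, from 2 without D + Q sham mouse 3 to 74 without vehicle sham mouse 5, while the count of members called was 0 without any 1 mouse.

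**Figure D2:**
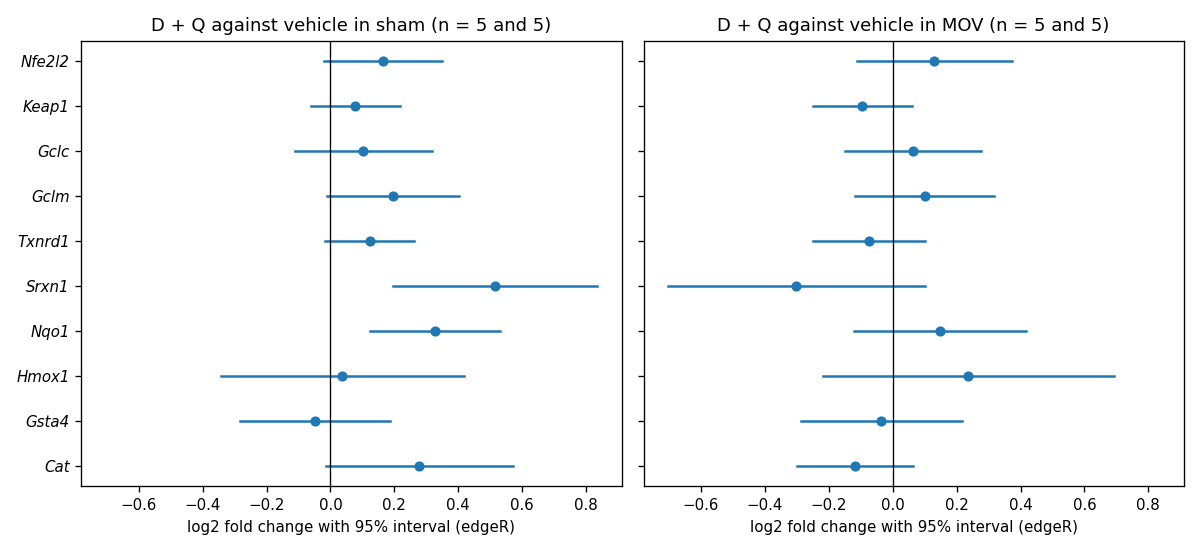
Log2 fold change of each member for D + Q against vehicle in sham (left) and MOV (right), with 95% intervals from edgeR (n = 5 and 5). In sham 9 of 10 points lie above 0, from 0.04 for Hmox1 to 0.52 for Srxn1; in MOV 5 do, and every interval there spans 0. Total-count scaling turns only Gsta4 in MOV, from -0.04 to 0.01.

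MOV against sham asks what overload did to the same genes, once in vehicle and once in D + Q mice. Here 7 of the 10 members were called in each treatment, where 0 were called by edgeR for D + Q against vehicle in sham or in MOV. Nqo1, Gsta4, Txnrd1, Gclc and Keap1 were lower relative to the typical gene and Hmox1 was higher in both treatments. Srxn1 was higher in vehicle mice only past the threshold, and Cat was lower in D + Q mice only past the threshold. Falls of Nqo1 and Gsta4 and the rise of Hmox1 held under each scaling; the fall of Keap1 in vehicle mice turned to 0.11 with total counts, not called.

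With vehicle, 7 of 10 members were called, 2 higher and 5 lower, beside 60.5% of the 14601 genes tested, 30.7% called higher and 29.8% called lower. With D + Q, 7 of 10 were called, 1 higher and 6 lower, beside 65.3% of the 14913 genes tested, 34.4% called higher and 30.9% called lower. The members' share of calls is thus near that of all genes. Their median log2 fold change was -0.19 with vehicle and -0.43 with D + Q, where all genes had -0.02 and 0.02. With total counts the members' median turned to 0.18 with vehicle and was -0.06 with D + Q, where all genes had 0.36 and 0.39. Groups without overlap were found for 6 of 10 members against 46.5% of genes with vehicle, and for 7 of 10 against 53.1% with D + Q. Without vehicle MOV mouse 2, as without any other 1 mouse, 7 members were called in each. With total counts only, 7 were called in vehicle mice, 5 higher and 2 lower, and 5 in D + Q mice, 2 higher and 3 lower.

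Among the regulators, Keap1 (chr9:21141026-21150679), the sensor, measured 87.9, 90.4, 96.0, 81.9 and 78.2 CPM in vehicle sham and 70.7, 83.1, 67.0, 66.7 and 70.5 CPM in vehicle MOV mice. Only mouse 2 of the MOV group reached into the sham range. In D + Q mice Keap1 went from 94.0, 82.8, 97.1, 99.9 and 87.8 CPM in sham to 66.9, 70.1, 64.0, 69.1 and 66.8 CPM in MOV, with no overlap. The log2 fold changes were -0.27 (SE 0.08, adjusted p = 0.00775, edgeR) with vehicle and -0.41 (SE 0.06, adjusted p = 9.92e-06, edgeR) with D + Q. With total counts they were 0.11 and -0.04, neither called. Nfe2l2 (chr2:75504739-75534985), the gene of NRF2 itself, lay between 32.3 and 37.6 CPM in vehicle sham, 32.4 and 48.4 in D + Q sham, 32.7 and 48.0 in vehicle MOV and 37.6 and 51.9 in D + Q MOV mice. All 4 groups overlapped. Its log2 fold changes with MOV were 0.14 (SE 0.10) and 0.13 (SE 0.11), not called, and with total counts 0.53 and 0.50, both called. The value with vehicle was 0.22 without vehicle MOV mouse 2 and 0.06 without mouse 4, and that with D + Q was 0.21 without D + Q sham mouse 4 and 0.06 without D + Q MOV mouse 5.

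A ratio of counts within a mouse does not depend on the scaling. The ratio of Nfe2l2 to Keap1 counts was 0.401, 0.417, 0.337, 0.425 and 0.467 in vehicle sham and 0.513, 0.394, 0.639, 0.720 and 0.466 in vehicle MOV mice. Vehicle MOV mice 2 and 5 fell within the sham range and the other 3 lay above it. In D + Q mice the ratio was 0.433, 0.391, 0.428, 0.485 and 0.412 in sham and 0.563, 0.598, 0.658, 0.555 and 0.776 in MOV, all 5 above all 5. The mean log2 ratio differed by 0.39 with vehicle (2-sided exact permutation test, p = 0.0714, adjusted p = 0.175) and by 0.54 with D + Q (exact p = 0.00794, the smallest these group sizes can give, adjusted p = 0.0635 over 8 tests). Neither passed after adjustment.

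In glutathione synthesis, Gclc (chr9:77661797-77701770), the catalytic subunit of glutamate-cysteine ligase, measured 18.3, 14.7, 17.5, 14.4 and 19.1 CPM in vehicle sham and 12.4, 11.1, 14.0, 10.9 and 12.8 CPM in vehicle MOV mice. In D + Q mice it measured 19.2, 14.8, 17.7, 20.5 and 18.7 CPM in sham and 12.6, 13.6, 11.0, 13.5 and 13.6 CPM in MOV. Every MOV mouse was below every sham mouse of its treatment. The log2 fold changes were -0.45 (SE 0.11, adjusted p = 0.00207, edgeR) and -0.45 (SE 0.09, adjusted p = 0.000366, edgeR), and with total counts -0.07 and -0.09, neither called. Gclm (chr3:122039126-122065061) overlapped between sham and MOV in both treatments, with log2 fold changes of -0.11 (SE 0.10) and -0.18 (SE 0.10) that total counts turned to 0.26, called, and 0.18, not called. Without vehicle MOV mouse 5 the first was -0.04, and without D + Q sham mouse 4 the second was -0.08. The mean log2 ratio of Gclc to Gclm counts was lower in MOV by -0.32 with vehicle (exact permutation test, p = 0.0873, adjusted p = 0.175) and by -0.27 with D + Q (exact p = 0.0238, adjusted p = 0.0952), and neither passed.

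In the thioredoxin system, Txnrd1 (chr10:82669785-82733546) measured 103.2, 101, 107, 96.9 and 110 CPM in vehicle sham and 78.6, 70.3, 72.3, 63.6 and 75.8 CPM in vehicle MOV mice. With D + Q it measured 124, 104, 101, 123 and 117 CPM in sham and 63.6, 76.2, 61.0, 72.2 and 71.8 CPM in MOV. The groups stood clear of each other in both treatments. The log2 fold changes were -0.51 (SE 0.07, adjusted p = 1.48e-05, edgeR) and -0.68 (SE 0.07, adjusted p = 3.58e-07, edgeR). With total counts the fall in vehicle mice, -0.14, lost its call, and that in D + Q mice, -0.31, kept it.

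Srxn1 (chr2:151947436-151957687) departed from Txnrd1. Set against the sham values above, every vehicle MOV mouse was higher than every vehicle sham mouse, and in D + Q mice the MOV and sham values overlapped. Its log2 fold change was 0.59 with vehicle (SE 0.17, adjusted p = 0.0107, edgeR) and, without vehicle MOV mouse 5, 0.40 (adjusted p = 0.00147, edgeR). With D + Q it was -0.19 (SE 0.16, adjusted p = 0.301, edgeR), which total counts turned to 0.17, not called, and -0.10 without D + Q sham mouse 4.

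Nqo1 (chr8:108113835-108129934) fell furthest among the members. In MOV it measured 13.0, 10.1, 10.5, 9.24 and 8.79 CPM with vehicle and 9.54, 11.7, 12.9, 10.4 and 13.0 CPM with D + Q, below all the sham values given above. Vehicle MOV mouse 1 was the highest of its group and still under the lowest sham mouse, at 16.6 CPM. The level was 2.12-fold lower with vehicle and 2.35-fold lower with D + Q. The log2 fold changes were -1.08 (SE 0.13, adjusted p = 4.61e-06, edgeR) and -1.23 (SE 0.09, adjusted p = 2.42e-09, edgeR), and with total counts -0.71 and -0.86, both called.

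Hmox1 (chr8:75820241-75827217) rose most among the members. In sham it measured 5.25, 6.39, 4.06, 6.23 and 4.53 CPM with vehicle and 3.62, 6.94, 5.07, 7.00 and 4.84 CPM with D + Q. Each MOV mouse, as listed for the D + Q comparison, was above the sham mice of its treatment, and vehicle MOV mouse 2, at 7.06 CPM, was the closest to them. The level was 2.22-fold higher with vehicle (log2 fold change 1.15, SE 0.24, adjusted p = 0.00105, edgeR) and 2.60-fold higher with D + Q (1.38, SE 0.15, adjusted p = 5.22e-07, edgeR). With total counts the changes were 1.55 and 1.74, both called. The change with vehicle was 1.31 without vehicle MOV mouse 2 and 0.94 without vehicle MOV mouse 4, called in both.

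Macrophages express Hmox1 strongly as they break down heme. Their markers were higher in MOV, as were those of other cell types given below. Of 10 macrophage markers, 9 were called higher in MOV with vehicle and 10 with D + Q, Lyz2 was the most abundant, and no marker was at 0. The markers summed to 60.3, 88.9, 78.6, 152 and 112 CPM in vehicle sham and 66.8, 159, 114, 102 and 102 CPM in D + Q sham mice. In MOV they summed to 537, 286, 610, 851 and 523 CPM with vehicle and 665, 622, 740, 645 and 674 CPM with D + Q. Within the vehicle MOV group the order of the 5 mice by this sum is also their order by Hmox1, and within the D + Q MOV group it is not. The summed fibroblast markers of the vehicle MOV mice, 6809, 4558, 7619, 9210 and 7547 CPM, were also lowest in mouse 2 and highest in mouse 4. The position on the axis from sham to MOV was lowest and highest in the same mice, at 0.771 and 1.17. These ends of the order are therefore not particular to macrophage markers. Whether the macrophage markers have a part in the Hmox1 result was not tested. In bulk muscle, more or fewer cells of a type and more or less RNA per cell cannot be told apart.

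**Figure D3:**
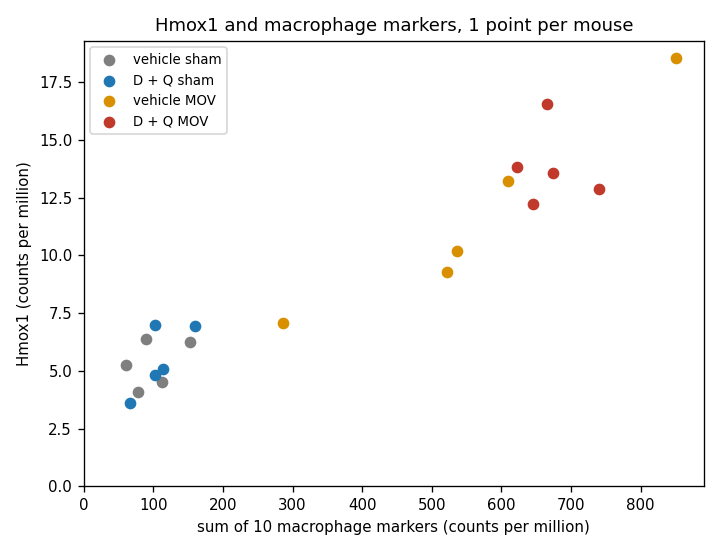
Hmox1 in CPM against the summed CPM of 10 macrophage markers, 1 point per mouse, coloured by group. Sham mice sit at 60.3 to 159 CPM of markers and 3.62 to 7.00 CPM of Hmox1; vehicle MOV mice spread from 286 to 851 CPM of markers, and D + Q MOV mice from 622 to 740.

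Gsta4 (chr9:78090056-78117763) measured 12.5, 19.1, 13.2, 13.5 and 14.1 CPM in vehicle sham and 8.88, 7.26, 8.48, 9.28 and 8.66 CPM in vehicle MOV mice. With D + Q it measured 12.8, 14.1, 14.2, 16.2 and 13.3 CPM in sham and 9.51, 9.67, 7.78, 7.41 and 7.35 CPM in MOV. Sham and MOV mice did not overlap, and vehicle sham mouse 2 was far above the rest of its group. The log2 fold changes were -0.75 (SE 0.12, adjusted p = 9.25e-05, edgeR) and -0.71 (SE 0.11, adjusted p = 1.51e-05, edgeR), and -0.63 with vehicle without that mouse. With total counts they were -0.37 and -0.35, both called.

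Cat (chr2:103284194-103316185) measured 85.9, 103.2, 87.3, 78.8 and 91.5 CPM in vehicle MOV and 86.7, 87.4, 79.5, 71.7 and 88.4 CPM in D + Q MOV mice. Vehicle MOV mice overlapped the vehicle sham mice, with mouse 2 above all of them, and every D + Q MOV mouse was below every D + Q sham mouse. The log2 fold change was -0.08 with vehicle (SE 0.07, adjusted p = 0.351, edgeR), turned by total counts to 0.29, which was called, and was -0.03 without vehicle MOV mouse 4. With D + Q it was -0.45 (SE 0.14, adjusted p = 0.0146, edgeR), and -0.29 (adjusted p = 0.00169, edgeR) without D + Q sham mouse 4. Total counts took it to -0.08, not called.

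**Figure D4:**
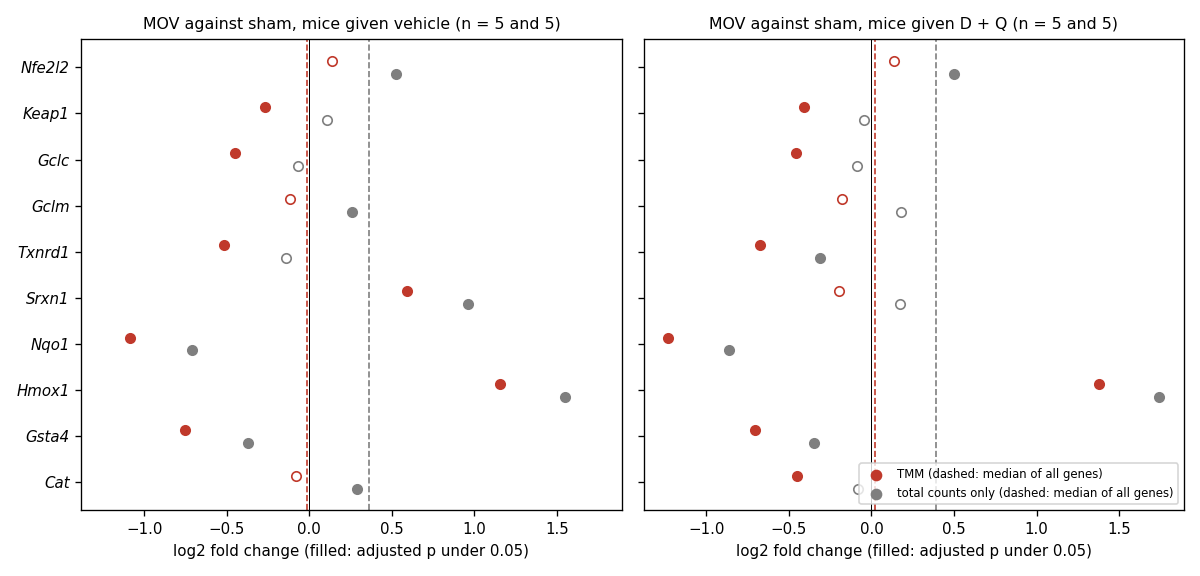
Log2 fold change of each member for MOV against sham in vehicle (left) and D + Q mice (right) under TMM and total-count scaling, filled where the adjusted p was under 0.05, with dashed lines at the median of all genes. Nqo1, Gsta4 and Hmox1 keep their side and their call under both; Keap1 and Cat with vehicle, Srxn1 with D + Q and Gclm in both change side.

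Other tissue markers moved with MOV beside these falls. The 6 fibroblast markers were all called higher in both treatments, with Col3a1 the most abundant, and their sum went from 463 ± 73.9 to 7149 ± 1692 CPM with vehicle and from 690 ± 193 to 9571 ± 1134 CPM with D + Q (SD, n = 5). The 8 fast muscle fibre markers, with Myh4 the most abundant, summed to 148400 ± 8170 CPM in vehicle sham and 90010 ± 10720 CPM in vehicle MOV mice, and to 155700 ± 5902 and 85810 ± 9232 CPM with D + Q. Of them 6 were called lower with vehicle and 7 with D + Q. The slow fibre markers, led by Myh7, summed to 278 ± 218 and 794 ± 319 CPM with vehicle and 173 ± 44.8 and 764 ± 214 CPM with D + Q. Endothelial markers, led by Pecam1, went from 138 ± 18.9 to 210 ± 11.1 CPM and from 156 ± 22.6 to 211 ± 26.1 CPM. Of 4 adipocyte markers tested, led by Fabp4, 1 was called higher and 3 lower with vehicle, and 1 higher and 1 lower with D + Q. Called higher were 2 of 3 satellite cell markers, led by Pax7, with vehicle and 2 of 4 with D + Q, and 2 of 3 neutrophil markers, led by Csf3r, with vehicle and 1 of 2 with D + Q. None of 5 erythroid markers, led by Hbb-bs, was called, and no listed marker with a row was at 0. The part of these lists in the members' falls was not tested.

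The interaction asks whether D + Q acted differently in MOV than in sham, or MOV differently under D + Q. Srxn1 and Cat lay furthest from 0. For Srxn1 the interaction was -0.82 (SE 0.25, adjusted p = 0.717, edgeR), built from a D + Q difference of 0.52 in sham and -0.30 in MOV. Without vehicle MOV mouse 5 it was -0.61. For Cat it was -0.40 (SE 0.15, adjusted p = 0.809, edgeR), and -0.24 without D + Q sham mouse 4.

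By edgeR 0 of 10 members were called for the interaction, beside 0.0127% of the 15700 genes tested. At an unadjusted p under 0.05 there were 2 members, Srxn1 and Cat, both negative, and 897 genes, where edgeR called 2 genes, and DESeq2 also called 0 members and 2 genes. Of the members 8 were negative and 2 positive, with a median of -0.14 against -0.01 for all genes. Without D + Q sham mouse 4 the split was 5 to 5, with a median of -0.07. The median was -0.08 without vehicle MOV mouse 1. Of the marker lists, 5 of 5 slow fibre (median 1.10), 10 of 10 macrophage (0.06) and 5 of 5 erythroid markers (0.26) were positive. The slow fibre values include vehicle sham mouse 3, whose sum of 663 CPM was far above the rest of its group. Single mice also weigh on the erythroid values, with sums of 788 and 937 CPM in vehicle sham mice 2 and 5 and 1028 CPM in vehicle MOV mouse 2. Negative were 3 of 3 neutrophil (-1.14), 6 of 6 endothelial (-0.12) and 5 of 6 fibroblast markers (-0.15). None of these was called, and their part was not tested. The 4 pairwise comparisons share mice in pairs, so the sham values of D + Q mice enter both the D + Q comparison in sham and the MOV comparison with D + Q. For Srxn1 and for Cat, called under MOV in 1 treatment only, the change with MOV is not shown to differ between treatments.

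The wider list held 60 further genes, of which 59 had a row and 56 or 57 were tested. It covers antioxidant and xenobiotic enzymes, NADPH supply, heme and iron genes and regulators, and is not limited to genes that NRF2 turns on. With D + Q, 0 were called in MOV, in sham or for the interaction by edgeR. Between MOV and sham, 16 of 56 were called higher and 26 lower with vehicle, where 30.7% of all genes were called higher and 29.8% lower. With D + Q, 15 of 56 were called higher and 32 lower, where 34.4% of all genes were called higher and 30.9% lower. Their median log2 fold change was -0.19 with vehicle and -0.22 with D + Q, against -0.02 and 0.02 for all genes, and total counts turned them to 0.18 and 0.14, against 0.36 and 0.39 for all genes. With total counts the split turned to 24 higher and 13 lower with vehicle, and 25 higher and 15 lower with D + Q, where 84.1% and 83.5% of all genes called were higher.

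Genes listed for the supply of NADPH, the reductant of glutathione and thioredoxin, were mostly called higher. Some of them act in the pentose phosphate pathway without forming NADPH themselves, and NADPH was not measured. In both treatments 5 of 6 were called higher and 1 lower, under each scaling, where 30.7% and 34.4% of all genes were called higher. With total counts, 84.1% and 83.5% of all called genes were higher, so there the count is near that of all calls. G6pdx, the first enzyme of the pentose phosphate pathway, went from 2.97 ± 0.762 to 6.64 ± 1.09 CPM with vehicle and from 3.53 ± 0.461 to 7.27 ± 0.770 CPM with D + Q (SD, n = 5). Its log2 fold changes were 1.17 and 1.09, and those of Me1, malic enzyme, were -1.20 and -1.17. Me1 was far more abundant than G6pdx. It lay between 166.9 and 300.1 CPM in vehicle sham and between 100.5 and 119.7 CPM in vehicle MOV mice. With D + Q it lay between 253.2 and 315.1 CPM in sham and between 111.1 and 139.6 CPM in MOV.

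Glutathione transferases went the other way, as Gsta4 did. Of the 7 tested, 6 were called lower in both treatments, where 29.8% and 30.9% of all genes were, and with total counts 4 were called lower and 0 higher. Gstm1 fell from 111 ± 6.82 to 60.4 ± 6.75 CPM with vehicle and from 122 ± 19.3 to 61.2 ± 6.70 CPM with D + Q, at log2 fold changes of -0.87 and -0.95.

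The other roles were mixed, beside 60.5% of all genes called with vehicle and 65.3% with D + Q, and each gene named for them kept its direction and its call under every scaling in both treatments. Of 8 regulators tested, 2 were called higher and 3 lower with vehicle, and 1 higher and 5 lower with D + Q, which total counts turned to 3 higher and 1 lower in each. The small MAF gene Maff had log2 fold changes of 1.13 and 1.24, and Cul3, the scaffold of the ligase that KEAP1 serves, had -0.86 and -0.88. Of 6 genes of glutathione synthesis and recycling, 1 was called higher and 3 lower in each, which total counts turned to 2 higher and 1 lower with vehicle and 3 higher and 2 lower with D + Q. Gpx1 had 0.91 and 1.01, and Gpx3, the secreted glutathione peroxidase, had -0.96 and -1.22. Of 10 thioredoxin and peroxiredoxin genes, 3 were called higher and 3 lower with vehicle, and 2 higher and 5 lower with D + Q, and with total counts 7 higher and 1 lower, and 6 higher and 2 lower. Txn1, cytosolic thioredoxin, had 0.56 and 0.49, and Prdx3, the mitochondrial peroxiredoxin, had -0.61 and -0.54.

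Quinone and xenobiotic genes spread to both sides. Of 9, 2 were called higher and 5 lower with vehicle, and 3 higher and 6 lower with D + Q, which total counts turned to 3 higher and 2 lower in each. Cbr3, a carbonyl reductase, had 2.04 and 1.37, and Aldh1a1, a retinaldehyde dehydrogenase, had -1.27 and -1.16. Cbr3 was low, at 0.761 ± 0.191 CPM in vehicle sham and 3.12 ± 0.682 CPM in vehicle MOV mice (SD, n = 5). Among 7 heme and iron genes, 2 were called higher and 4 lower in both treatments, and with total counts 2 higher and 2 lower with vehicle and 4 higher and 2 lower with D + Q. Ftl1, the ferritin light chain, had log2 fold changes of 1.38 and 1.27, and Slc40a1, the iron exporter ferroportin, had -1.09 and -1.18. Of the 3 superoxide dismutases, extracellular Sod3 had 1.94 and 1.93 and mitochondrial Sod2 had -1.04 and -0.99.

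**Figure D5:**
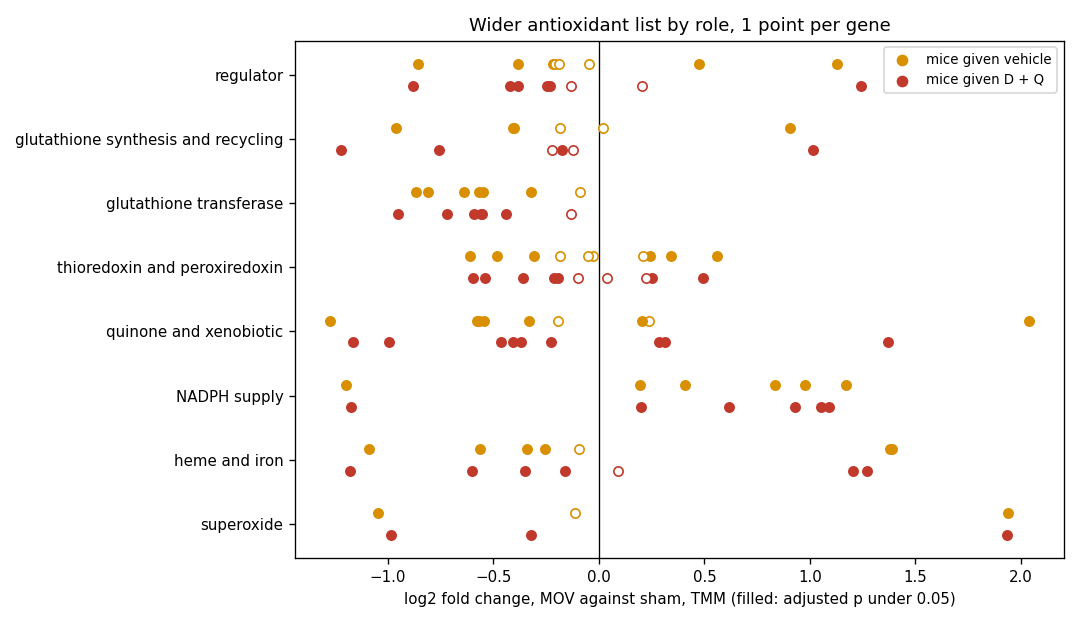
Log2 fold change for MOV against sham of each tested gene of the wider list by role, TMM scaled, in vehicle and D + Q mice, filled where the adjusted p was under 0.05. The 7 glutathione transferases lie below 0 and 5 of 6 NADPH genes above it; with total counts Gstt1 turns to 0.30 and 0.23 and Gstp1 with vehicle to 0.06, none called.

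For each member, the tested gene with the most similar pattern was sought among 15699 genes, as the Pearson correlation of log2 CPM deviations from the 4 group means over the 20 mice, a description with no test. These were Atf2 for Nfe2l2 (r = 0.82), Rcc1l for Keap1 (0.88), Marf1 for Gclc (0.81), Smcr8 for Gclm (0.87) and Ppm1b for Txnrd1 (0.84). For the remaining members they were Xirp1 for Srxn1 (0.87), Rbm22 for Nqo1 (0.75), Tgfbr2 for Hmox1 (0.88), Ccdc115 for Gsta4 (0.74) and Acot2 for Cat (0.83). The Spearman correlation of Acot2 and Cat was 0.55, and D + Q sham mouse 4 was far above its group in both, with Acot2 at 71.8 CPM against 23.6 to 27.4 CPM in the other 4. Among the members themselves, Gclc and Txnrd1 were the most similar pair at 0.74 and Keap1 and Hmox1 the most opposed at -0.46.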

How the data were processed

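RNA from the plantaris of 20 mice was sequenced, with mice grouped by the sample titles. The authors aligned reads to GRCm39 with STAR 2.7.8a and quantified genes in Partek Flow, per the methods and the submitters' processing notes, and deposited estimated counts without normalization. Of these values 29.8% were not whole numbers, and they were rounded for the tests. Every row summed to at least 10 counts, and 20 rows carried repeated names. Whether counting used strand is not stated, so Nfe2l2, Keap1, Gclm and Srxn1, whose exons overlap genes on the opposite strand, and Gclm, which overlaps a pseudogene, may include reads of those genes.

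Comparisons used edgeR 4.0.16 (R 4.3.3, robust quasi-likelihood test) after TMM scaling. A gene entered a fit if 5 or more of its mice had 10 or more counts, with Benjamini-Hochberg adjustment over all genes and a threshold of 0.05. Each pairwise fit held its own 10 mice and the interaction all 20. DESeq2 1.42.0 is named beside each value it gave. Intervals are 95% intervals from the same fit. Count ratios were compared with 2-sided exact permutation tests over 252 divisions of 10 mice, whose smallest p is 0.00794. The edgeR fit was tested on simulated data, where the share of calls on unchanged genes was above the nominal threshold at the larger of the changes simulated. Total counts per mouse were 17887532 to 26234518, which limits precision for low genes.

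Alternatives were DESeq2, other scalings and filters, 1 fit of all mice, a replicate block, group medians for the ratios, and leaving out each mouse. The members and lists were chosen with earlier results of these data known, and the promoter search and its 2 spellings were chosen after the values were seen. Named were all members, from the wider list each gene called with D + Q or for the interaction and, per role, the gene with the largest rise and the largest fall by the mean of the 2 log2 fold changes under MOV, among genes called in both treatments, the most abundant marker of each cell type list, and the gene most similar to each member.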

Additional observations from a re-analysis of the deposited data

Results flagged for a closer look

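In 4 of the 40 groups of 5 values that the 10 members give, the mouse at one end stood further from its nearest neighbour than a fixed share of the group's range allows; chance gives about 1 in 20 groups, or 2 of 40. Keap1 in vehicle MOV mouse 2 was 83.1 CPM, far above the other 4 vehicle MOV mice. Srxn1 in vehicle MOV mouse 5 was 78.0 CPM, where the next highest was 46.4 CPM. Gsta4 in vehicle sham mouse 2 was 19.1 CPM, where the next was 14.1 CPM. Cat in D + Q sham mouse 4 was 165 CPM, where the next was 114 CPM.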

How the results depend on the processing

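Only DESeq2 and total counts changed which members were called. With DESeq2, genes called for D + Q went to 13 in MOV and 123 in sham, and members called in sham to 1, Srxn1. Total counts only gave 49 genes in sham, no filter on low counts 67, and 1 fit of all 20 mice 19. Total counts turned Gsta4 for D + Q in MOV to 0.0126, Keap1, Gclm and Cat for MOV with vehicle to 0.11, 0.26 and 0.29, and Gclm and Srxn1 for MOV with D + Q to 0.18 and 0.17. With the replicate block, genes called were 2 for D + Q in MOV, 19 in sham and 1 for the interaction, and Gsta4 turned to -0.00787 for the interaction; no member's call changed. The mouse numbers were not treated as pairs in the main fits, as the groups held different animals. Same-numbered mice correlated above 0.1 in at most 1 of 5 pairs of a comparison, which does not show whether they shared a day or a batch. With group medians, the log2 ratio of Gclc to Gclm for D + Q in MOV turned to 0.0302. The cause was not tested. Leaving out 1 mouse gave 0 to 2 genes for D + Q in MOV and 2 to 74 in sham, and no member gained or lost a call. It turned the sign of uncalled values, which ranged from -0.0952 to 0.00984 for Gsta4 and, for the log2 ratio of Gclc to Gclm, -0.126 to 0.0490 for D + Q in MOV; from -0.0657 to 0.150 for Hmox1 and -0.0991 to 0.0791 for Gsta4 in sham; and from -0.121 to 0.0534 for Nfe2l2, -0.105 to 0.0116 for Gclc, -0.156 to 8.23e-05 for Gclm and -0.112 to 0.0613 for Gsta4 for the interaction. Groups of 5 mice left differences of the size in the 95% intervals undecided.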
